A study of Mus musculus with 15 samples.

Results

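The genes described here lie beside Rps6kb1, the gene that encodes the kinase S6K1, on mouse chromosome 11. They were chosen by position, with some gene families left out by symbol. All protein-coding genes of the deposited count table that overlap chr11:81312373-91358307 (mm9), which is Rps6kb1 and 5 Mb to either side, were taken, without Rps6kb1 itself, Acaca, the 8 Schlafen genes (Slfn) and the 11 chemokine genes (Ccl). This left 106 neighbours of 127 protein-coding genes in the window and of 37991 genes in the table. Of the 106, 53 lie at lower coordinates than Rps6kb1, 52 lie at higher coordinates and 1, Rnft1, overlaps its end; 50 are on the plus strand and 56 on the minus strand. Liver RNA of female mice was sequenced in 3 groups of 5 libraries, and all mice were of the C57BL/6 inbred strain. Young WT mice were 90 days old, and old WT and old KO mice were 600 days old. WT means mice with intact Rps6kb1 and KO means mice in which S6K1 was knocked out in the whole body, both from heterozygous parents and with no further treatment named. Young KO libraries were not analysed here, so age was compared in WT mice alone.

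As background, S6K1 is a serine/threonine kinase that acts downstream of the nutrient sensor mTORC1 and phosphorylates ribosomal protein S6 and other targets that promote protein synthesis and cell growth. Genes that lie close together on a chromosome are genetically linked and are passed on together more often than distant genes. The neighbours share position rather than function. They include helicases, DNA repair proteins, the heavy chain of clathrin, a phosphatidylcholine carrier of the liver and granule enzymes of white blood cells.

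Total counts ranged from 21801754 to 38065359 in young WT, from 27063911 to 31990482 in old WT and from 21984658 to 27923739 in old KO. Of 37991 genes, 14258 had enough counts to be tested, and 73 of the 106 neighbours were among them. Levels are given as CPM, which are counts scaled to a common library size. The 8 hepatocyte markers, Alb among them, summed to between 78101 and 144100 CPM in every library, and none of the 8 passed the test between old KO and old WT. Between the old groups, 8 of 18 monocyte and macrophage markers fell in KO mice and none rose, while 0.533% of all tested genes were called. Since whole liver was sequenced, fewer cells of a type and less RNA per cell cannot be told apart from these counts. From staining of liver sections, the study reported reduced infiltration of myeloid cells in old KO mice against old WT mice.

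Rps6kb1 was lower in all 5 old KO libraries than in any WT library but was not at 0 in them. The 5 young WT libraries had 38.1, 33.3, 41.4, 38.0 and 40.5 CPM, the 5 old WT libraries had 35.8, 34.6, 37.3, 38.8 and 45.3 CPM, and the 5 old KO libraries had 16.3, 15.8, 16.9, 15.2 and 20.8 CPM. The log2 fold change between old KO and old WT was -1.17 ± 0.098 (SE), with an adjusted p of 8.53e-06 in edgeR's quasi-likelihood test with Benjamini-Hochberg adjustment over all 14258 genes. The targeted gene thus separated the libraries as their labels state, with 0.443 of the old WT level left (95% interval 0.384 to 0.512). Which exons the remaining reads cover cannot be read from counts per gene.

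Among the 73 tested neighbours, Dhx40 passed the test between old KO and old WT and the other 72 did not. Dhx40 (ENSMUSG00000018425) encodes a DEAH-box protein of the RNA helicase family. It lies on the minus strand at chr11:86582348-86621198, 224 kb above Rps6kb1, and none of its exons overlap those of another annotated gene. Young WT libraries had 44.9, 47.4, 52.1, 50.4 and 58.7 CPM, old WT libraries had 51.2, 53.4, 50.6, 52.3 and 51.8 CPM, and old KO libraries had 26.2, 25.4, 23.6, 24.2 and 25.5 CPM. Every old KO library was below every WT library of either age, and the gap between the old groups was many times the spread within them. Group means were 50.7 ± 5.27, 51.8 ± 1.05 and 25.0 ± 1.06 CPM (SD, n = 5), on counts of 550 to 1705 per library.

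Dhx40 fell by 1.05 on the log2 scale in old KO against old WT (SE 0.0705, 95% interval -1.20 to -0.90, adjusted p = 4.84e-07, edgeR), which left 0.482 of the old WT level. By p it ranked 2 of 14258 genes, ahead of Rps6kb1 itself at 3. An exact two-sided permutation test on its 10 CPM values gave p = 0.00794, the smallest that 252 assignments of 5 against 5 can give. Any gene whose old KO and old WT ranges do not overlap reaches this value, and 456 of 14258 tested genes (3.20%) have no overlap. The permutation test thus adds nothing beyond the separation of the libraries. The old KO level was also lower than that of young WT, by -1.02 on the log2 scale (adjusted p = 1.57e-06, edgeR). Age did not move it detectably in WT mice, with a log2 fold change of 0.03 (95% interval -0.11 to 0.18, adjusted p = 0.768, edgeR). Dhx40 was called in all 23 fits of the genotype comparison, the main one and 22 alternatives, with log2 fold changes from -1.09 to -1.03.

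The 250 bases before the annotated start of Dhx40 are shown because Dhx40 is the neighbour that changed with genotype. They were read on the minus strand from the mm9 reference, chr11:86621199-86621448, and not from the mice. Capitals mark the motif GGGCGG, the GC box, on either strand; the CCAAT motif, the TATA box (searched as the letters TATAAA) and the nuclear respiratory factor 1 letters CATGCG were also searched on both strands and were not found in this window.
Dhx40 upstream: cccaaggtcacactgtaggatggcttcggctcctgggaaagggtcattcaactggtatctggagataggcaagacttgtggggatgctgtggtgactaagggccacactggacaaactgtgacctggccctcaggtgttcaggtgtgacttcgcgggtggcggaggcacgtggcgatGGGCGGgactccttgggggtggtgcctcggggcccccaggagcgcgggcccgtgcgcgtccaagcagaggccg
The stretch has a GC content of 64.0% and 14 CpG dinucleotides. A GC box stands in 39.6% of such stretches before all protein-coding genes of the annotation.

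The genes on either side of Rps6kb1 were not called between the old groups. Tubd1, which encodes delta-tubulin, starts on the plus strand 185 bases beyond the start of Rps6kb1, so that both are transcribed away from a common gap. The bases of this gap are shown because they lie before the starts of both genes. They are chr11:86358308-86358492 on the plus strand of mm9. Capitals mark CATGCG on either strand, a part of the motif bound by nuclear respiratory factor 1, which was added to the search after the sequence had been read.
Rps6kb1-Tubd1 gap: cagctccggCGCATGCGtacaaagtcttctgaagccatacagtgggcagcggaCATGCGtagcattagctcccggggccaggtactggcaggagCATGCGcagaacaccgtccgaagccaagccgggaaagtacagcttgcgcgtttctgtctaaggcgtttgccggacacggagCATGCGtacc
Over both strands the gap has 5 matches to CATGCG, the first pair of which overlap each other, and no GC box, no CCAAT motif and no TATA box. For scale, 6.1% of the 250-base stretches before all protein-coding genes hold CATGCG at least once.

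Tubd1 had 2.18, 1.83, 2.08, 1.90 and 1.90 CPM in young WT, 2.09, 2.84, 3.16, 2.34 and 2.35 CPM in old WT, and 4.19, 3.81, 3.08, 3.81 and 2.64 CPM in old KO. The old KO libraries stood above all young WT libraries but overlapped those of old WT. Between the old groups the log2 fold change was 0.46 ± 0.153 (SE, 95% interval 0.13 to 0.78), which did not pass the test (adjusted p = 0.223, edgeR), whereas Tubd1 rose by 0.83 on the log2 scale in old KO against young WT (adjusted p = 0.00178, edgeR). In the Rps6kb1 gene next to it, the fold change between the old groups was in the opposite direction.

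Rnft1, which encodes a RING finger membrane protein, lies on the plus strand at chr11:86298159-86312527, and its last exon overlaps that of Rps6kb1 on the other strand. Whether the counting used strand was not given in the sources used here, so reads in the overlap cannot be assigned with certainty. Its level was 48.6 ± 3.05, 52.2 ± 1.81 and 47.7 ± 2.74 CPM (SD, n = 5) in young WT, old WT and old KO. The difference between the old groups was small, -0.13 on the log2 scale (95% interval -0.26 to 0.00, adjusted p = 0.444, edgeR), and the groups overlapped.

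Between Tubd1 and Dhx40 lie Vmp1, Ptrh2 and Cltc. Vmp1, an endoplasmic reticulum protein needed for autophagosome formation, had 86.2 ± 11.8 CPM in old WT and 81.7 ± 19.9 CPM in old KO (SD, n = 5), a log2 fold change of -0.08 (adjusted p = 0.904, edgeR). Its annotated exons also cover the microRNA gene Mir21 on the same strand. Ptrh2, a mitochondrial peptidyl-tRNA hydrolase, had 14.2 ± 1.18 and 14.0 ± 1.30 CPM, a log2 fold change of -0.02 with a 95% interval from -0.23 to 0.19 (adjusted p = 0.97, edgeR). These intervals do not reach the change of Dhx40 on either gene. Cltc, the clathrin heavy chain that forms the coat of endocytic vesicles, ends 149.5 kb above Rps6kb1 and had 264 ± 14.6 CPM in old WT and 231 ± 15.1 CPM in old KO, a log2 fold change of -0.20 (adjusted p = 0.311, edgeR).

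Below Rps6kb1 the nearest genes after Rnft1 are Med13, Ints2, Brip1 and Tbx4. Med13, a subunit of the Mediator kinase module, had 57.5 ± 3.90 CPM in old WT and 58.8 ± 5.91 CPM in old KO, a log2 fold change of 0.03 (adjusted p = 0.944, edgeR). Ints2, a subunit of the Integrator complex, had 6.49 ± 0.49 and 6.32 ± 1.13 CPM, a log2 fold change of -0.04 (adjusted p = 0.957, edgeR). Both overlap exons of 4632419I22Rik on the other strand. Brip1, a helicase that works with BRCA1 in DNA repair, had 3.58 ± 0.349 and 3.66 ± 0.546 CPM, a log2 fold change of 0.03 (adjusted p = 0.964, edgeR). Tbx4, a transcription factor of limb and lung development, was not tested, as no library held more than 2 of its counts.

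**Figure D1:**
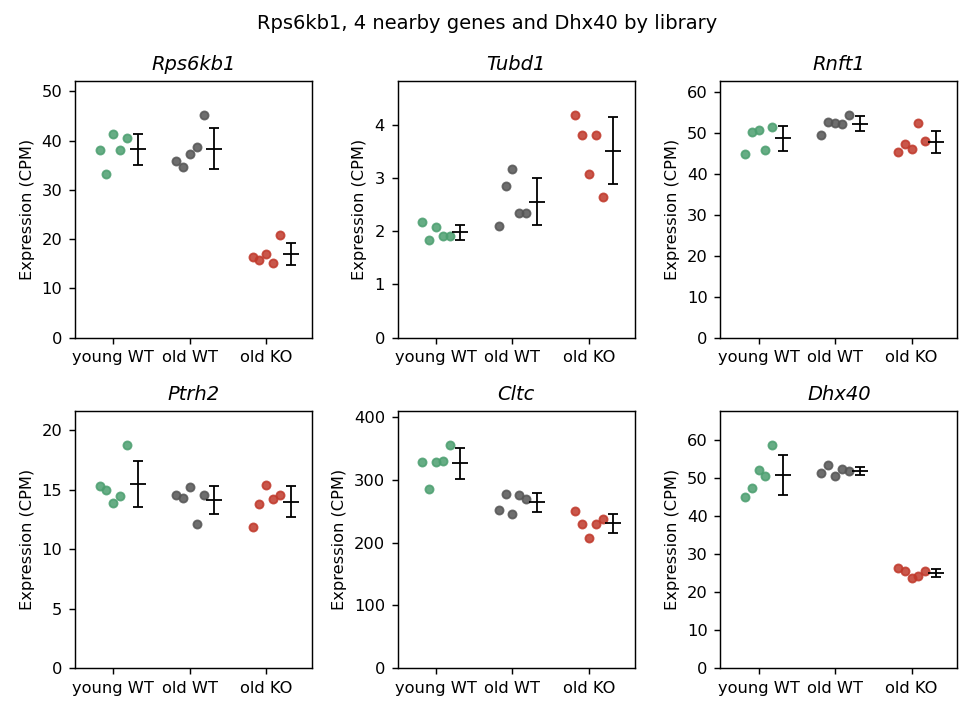
Expression in CPM (vertical axes, from 0) of Rps6kb1, of Tubd1, Rnft1, Ptrh2 and Cltc, which lie near it, and of Dhx40 in each library of young WT, old WT and old KO; points are libraries and bars the mean ± SD (n = 5). The old KO points of Rps6kb1 (15.2 to 20.8 CPM) and Dhx40 (23.6 to 26.2 CPM) lie apart from all WT points, while those of Rnft1 and Ptrh2 overlap them.

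Dhx40 was 1 of 73 tested neighbours called between old KO and old WT (1.37%), against a background of 0.533% of all tested genes (76 of 14258, 16 higher and 60 lower). With 1 call, this share says nothing about the neighbours as a group, and it depends on the genes left out by symbol. Of the 12 other tested protein-coding genes of the window, 5 were called (41.7%), namely Rps6kb1, Slfn8, Slfn9, Ccl9 and Ccl6. DESeq2 called 6 of the 73, all lower in old KO, and 309 of all genes. At an unadjusted p under 0.05, 16 neighbours (21.9%) passed, against 1661 genes (11.6%) of all those tested. The median log2 fold change of the neighbours was -0.02 and that of all tested genes 0.00, and the median of its absolute value was 0.121 against 0.123. In old KO 36 neighbours were on the higher and 37 on the lower side, with values from -1.14 to 0.80.

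By side, the 36 tested neighbours below Rps6kb1 had a median absolute log2 fold change of 0.0852 between the old groups, and the 36 above had 0.199. For age these medians were 0.111 and 0.176. By distance, 18 tested neighbours lay within 1 Mb of Rps6kb1 and 55 between 1 and 5 Mb. The nearer ones had a median absolute log2 fold change of 0.194 between the old groups and the farther ones 0.103. In the comparison of old WT with young WT, in which the genotype is the same, the corresponding medians were 0.211 and 0.124. The nearer genes thus had the larger median in both comparisons. Over all tested genes the medians were 0.123 between the old groups and 0.214 for age. The ranges of old KO and old WT did not overlap in 3 of the 18 nearer neighbours (16.7%). Among the 55 farther ones this held for 3 (5.45%), and among all tested genes for 3.20%. The part of distance in these values was not tested. On the rest of chromosome 11, 5 of 992 tested protein-coding genes were called between old KO and old WT (0.504%), with a median of 0.116, and on other chromosomes 63 of 12097 (0.521%), with a median of 0.118.

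**Figure D2:**
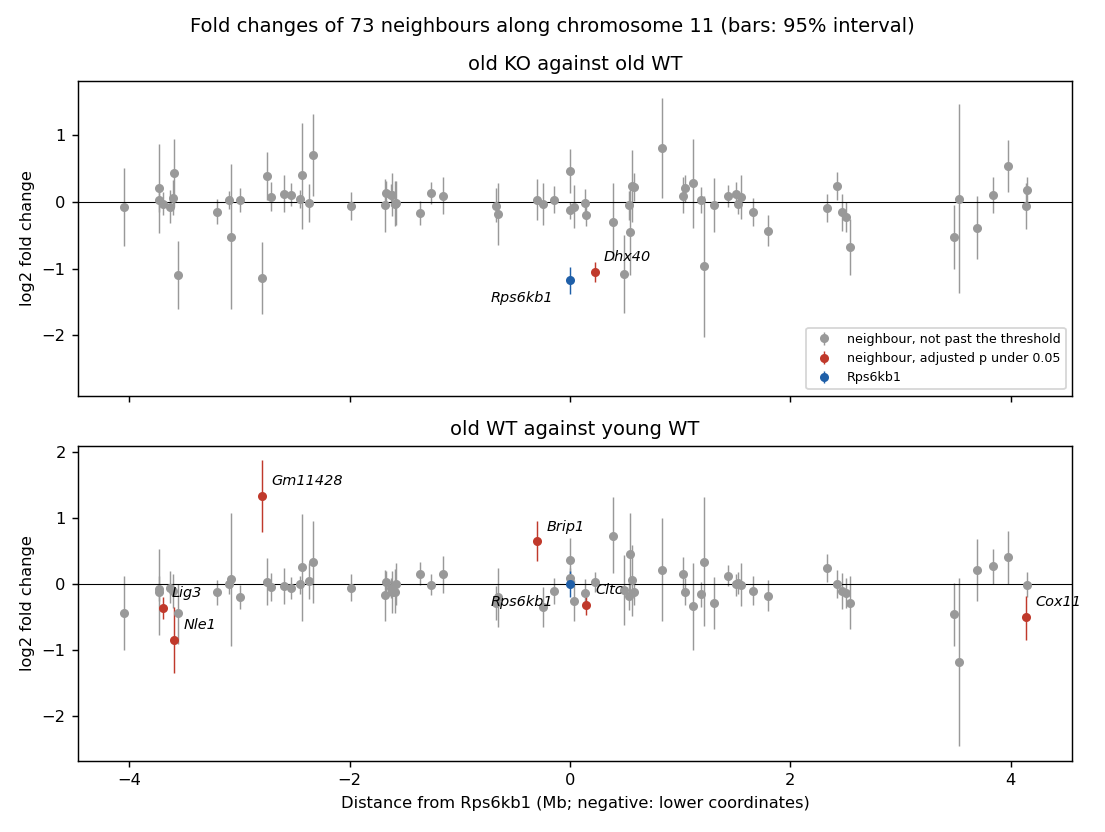
Log2 fold change (vertical axes) of the 73 tested neighbours and Rps6kb1 against distance from Rps6kb1 in Mb (horizontal axis, negative at lower coordinates), for old KO against old WT (upper panel) and old WT against young WT (lower panel); bars are 95% intervals, red marks an adjusted p under 0.05 and blue Rps6kb1. In the upper panel Dhx40 is the 1 neighbour in red and lies beside Rps6kb1, and in the lower panel the 6 red neighbours are spread over the window.

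The CPM ranges of old KO and old WT did not overlap in 6 neighbours (8.22%, against 3.20% of all tested genes), namely Dhx40, Gm11428, Unc45b, Gdpd1, Stxbp4 and Trim37. All but Dhx40 missed the threshold, and Unc45b, Gdpd1, Stxbp4, Trim37 and Msi2 are described here because of values that had already been seen. Unc45b, a myosin chaperone of muscle that lies 3555 kb below Rps6kb1, had 1.90, 1.32, 1.37, 1.43 and 1.32 CPM in old WT and 0.748, 0.508, 0.556, 0.922 and 0.696 CPM in old KO. Its counts were low, 13 to 95 per library, and its exons overlap those of other genes on the opposite strand. The log2 fold change was -1.10 ± 0.239 (SE, adjusted p = 0.051, edgeR), just outside the threshold, and in 4 of the 23 fits it was called.

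Gm11428, listed in RefSeq as Wfdc17, encodes a small secreted WAP-domain protein known from activated macrophages, and lies 2793 kb below Rps6kb1. Old WT libraries had 10.4, 15.2, 6.32, 13.6 and 9.26 CPM and old KO libraries had 5.73, 6.28, 3.94, 5.45 and 3.29 CPM. The lowest old WT library was just above the highest old KO library. The log2 fold change was -1.14 ± 0.255 (SE, adjusted p = 0.0599, edgeR) and was called in 4 of 23 fits. All 18 monocyte and macrophage markers had negative log2 fold changes in old KO against old WT, with a median of -1.02. Their summed level ranged from 414 to 842 CPM in old WT and from 220.0 to 373 CPM in old KO. Of the 18, 8 were called, and no tested marker of another cell type was. Negative values alone were not particular to the macrophage markers. All 9 tested T cell markers were also negative, with a median of -0.69. So were 7 of 8 endothelial markers (median -0.09) and 6 of 8 B and plasma cell markers (median -0.18). The same held for 2 of 3 tested neutrophil and 2 of 2 tested adipocyte markers, with medians of -0.34 and -0.25. Fewer were negative among stellate (3 of 8), bile duct (2 of 6) and hepatocyte markers (1 of 8). The part of any cell type in the value of Gm11428 was not tested.

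Gdpd1, a glycerophosphodiester phosphodiesterase 489 kb above Rps6kb1, had 1.04 ± 0.238 CPM in old WT and 0.485 ± 0.145 CPM in old KO (SD, n = 5), on counts of 6 to 49 per library (log2 fold change -1.08 ± 0.277, adjusted p = 0.0978, edgeR). Msi2, an RNA-binding protein of the Musashi family, had 32.5 ± 4.29 and 24.0 ± 3.41 CPM, and its groups overlapped (log2 fold change -0.44 ± 0.111, adjusted p = 0.0967, edgeR). Both were called with DESeq2 alone. Stxbp4, a syntaxin-binding protein, and Trim37, a ubiquitin ligase, were on the higher side in old KO. Stxbp4 had 3.41 ± 0.312 CPM in old WT and 4.93 ± 0.945 CPM in old KO (adjusted p = 0.246, edgeR), and Trim37 had 15 ± 0.885 and 17.4 ± 1.85 CPM (adjusted p = 0.39, edgeR).

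**Figure D3:**
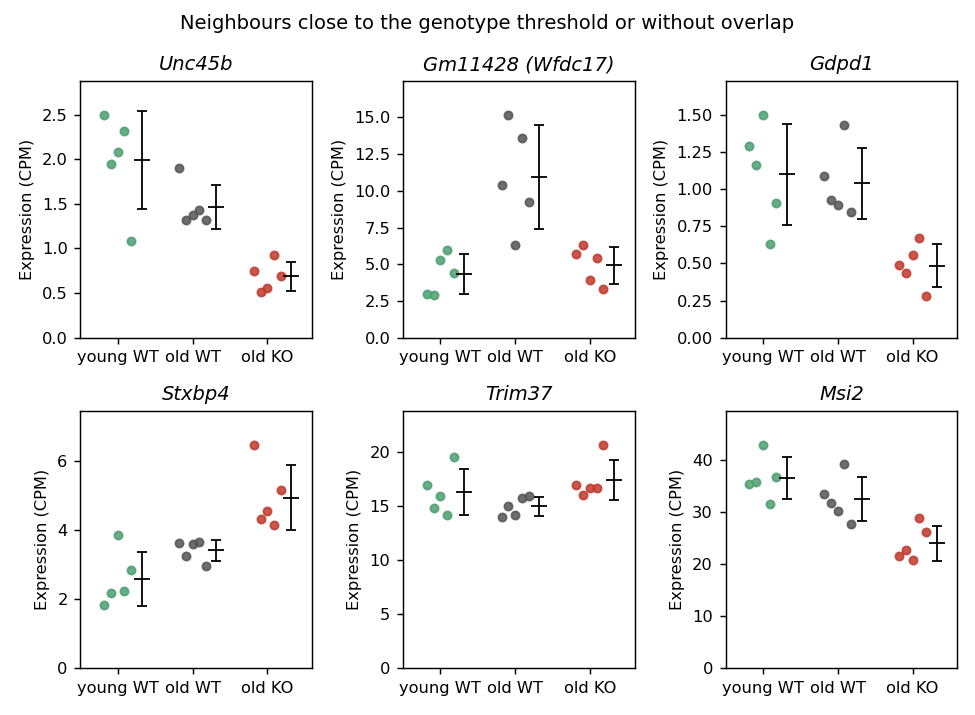
Expression in CPM (vertical axes, from 0) of 6 neighbours by library in young WT, old WT and old KO; points are libraries and bars the mean ± SD (n = 5). Unc45b, Gm11428, Gdpd1 and Msi2 have lower means and Stxbp4 and Trim37 higher means in old KO than in old WT, with adjusted p from 0.051 to 0.39.

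With age, 6 of the 73 neighbours changed between old WT and young WT (8.22%), against 18.8% of all tested genes (2685 of 14258). Brip1 and Gm11428 rose, and Lig3, Nle1, Cltc and Cox11 fell. The groups did not overlap in 5 neighbours (6.85%, against 11.4% of all tested genes), and the median absolute log2 fold change was 0.129, against 0.214 over all tested genes. At an unadjusted p under 0.05, 14 neighbours passed (19.2%, against 33% of all). The difference between these shares was not tested.

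Gm11428 had 3, 2.93, 5.28, 5.96 and 4.44 CPM in young WT, all below the lowest old WT value of 6.32 CPM. It rose by 1.34 on the log2 scale (SE 0.255, adjusted p = 0.00283, edgeR), and its level in old KO, 4.94 ± 1.26 CPM, overlapped that in young WT, 4.32 ± 1.35 CPM (SD, n = 5). In the same comparison, 4 of the 18 macrophage and monocyte genes listed above rose and none fell, with a median of 0.48, and their sum ranged from 278 to 607 CPM in young WT. The count of 4 is close to the share of all tested genes called with age, 18.8%. Brip1 had 2.34, 1.89, 2.12, 2.86 and 2.15 CPM in young WT and 3.65, 3.80, 3.55, 3 and 3.89 CPM in old WT, with no overlap. It rose by 0.65 on the log2 scale (SE 0.143, adjusted p = 0.00596, edgeR).

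Cltc had 329, 286, 329, 330.5 and 356 CPM in young WT and 252, 278, 245, 275 and 269.6 CPM in old WT. All old WT libraries were below all young WT libraries, and the log2 fold change was -0.31 ± 0.0761 (SE, adjusted p = 0.012, edgeR). Lig3, a DNA ligase that acts in single-strand break repair and in mitochondria, had 26.0, 27.0, 23.6, 26.0 and 23.4 CPM in young WT and 21.2, 22.1, 19.8, 16.1 and 18.9 CPM in old WT. It fell by 0.36 on the log2 scale (adjusted p = 0.00679, edgeR), and its old KO level of 19.3 ± 0.414 CPM was within the old WT range. Its exons overlap those of Rffl on the other strand.

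Cox11, an assembly factor that delivers copper to cytochrome c oxidase, had 2.95, 2.41, 1.99, 2.62 and 2.28 CPM in young WT and 1.47, 1.88, 1.91, 1.54 and 1.87 CPM in old WT. Exons of Cox11 overlap those of Tom1l1 on the other strand, and the means over all libraries were 1.95 CPM for Cox11 and 27.7 CPM for Tom1l1. Since the use of strand in counting was not given, reads in this overlap cannot be assigned with certainty. The groups did not overlap for Cox11, but the lowest young library was just above the highest old one. The log2 fold change was -0.50 ± 0.158 (SE, adjusted p = 0.0369, edgeR), and the call was lost when any 1 of young WT 1, 2 or 4 or old WT 1, 4 or 7 was left out (adjusted p from 0.0568 to 0.102, edgeR). Nle1, a factor of large ribosomal subunit assembly that was named after its values were seen, had 9.18, 7.54, 4.37, 4.73 and 3.06 CPM in young WT and 3.31, 2.74, 2.95, 3.99 and 3.20 CPM in old WT. The young values were widely spread and overlapped the old ones (log2 fold change -0.84 ± 0.236, adjusted p = 0.0216, edgeR). The Nle1 call was lost when any 1 of young WT 1 or 2 or old WT 4 or 5 was left out (adjusted p from 0.0502 to 0.0688, edgeR).

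**Figure D4:**
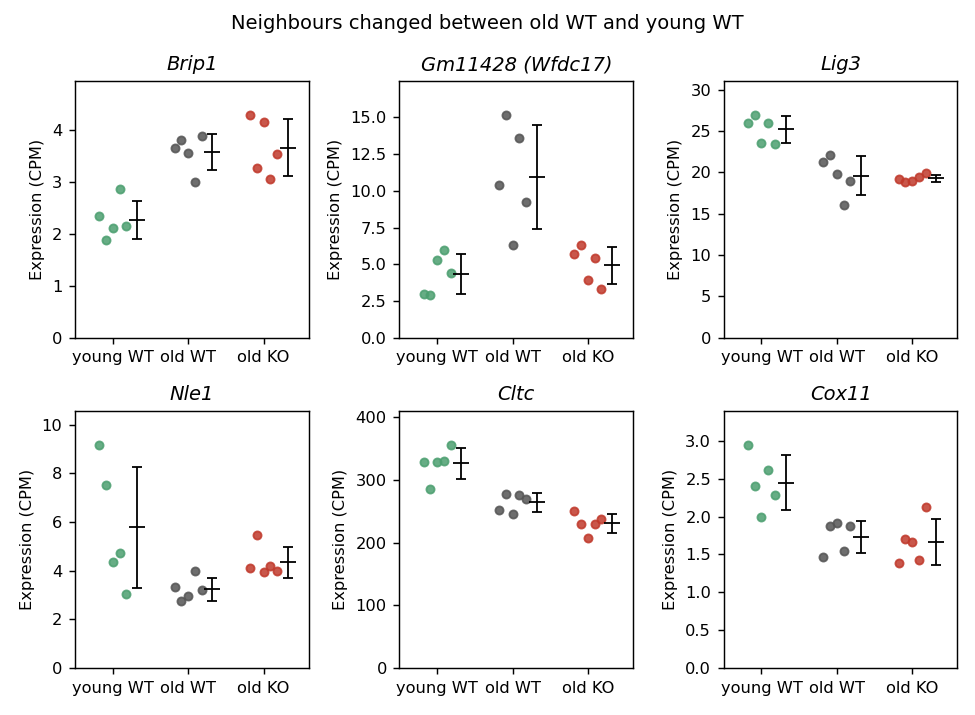
Expression in CPM (vertical axes, from 0) of the 6 neighbours called between old WT and young WT, by library in the 3 groups; points are libraries and bars the mean ± SD (n = 5). Brip1 and Gm11428 were higher and Lig3, Nle1, Cltc and Cox11 lower in old WT than in young WT, and the old KO points of Brip1, Lig3 and Cox11 overlap those of old WT.

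When old KO was set against young WT, so that age and genotype both differ, 18 of 73 neighbours were called (24.7%), 6 higher and 12 lower, against 23.3% of all tested genes (3319 of 14258). The ranges did not overlap in 12 neighbours (16.4%, against 13.9% of all). This comparison shares its libraries with the other comparisons and is not independent of them. Among the called neighbours were Dhx40, Cltc, Lig3, Cox11, Pctp and Unc45b, which fell, and Tubd1, Brip1 and Stxbp4, which rose. The call of Cox11 was lost without young WT 1 or old KO 5 (adjusted p from 0.0513 to 0.0564, edgeR). Cltc fell by 0.50 on the log2 scale (adjusted p = 0.00048, edgeR), next to -0.31 for age and -0.20 for genotype. Against all 10 WT libraries together, the old KO range did not overlap in Dhx40, Unc45b and Stxbp4, 3 of 73 neighbours (4.11%, against 0.821% of all tested genes).

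Grouped by role, most neighbours showed small differences between the old groups. Of 73 tested neighbours, 55 were in a role list. The 7 genes of RNA helicases, RNA processing and ribosome assembly held the 1 call, Dhx40. The splicing factor Srsf1 had 112 ± 10.3 CPM in old WT and 121 ± 10.7 CPM in old KO (log2 fold change 0.12, adjusted p = 0.588, edgeR), and the DEAD-box helicase Ddx52 had 22.3 ± 1.45 and 23.9 ± 1.98 CPM (log2 fold change 0.10, adjusted p = 0.684, edgeR). The other 6 had log2 fold changes from -0.44 to 0.43. With age, Nle1 was the 1 of these 7 to pass the test.

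The 5 DNA repair and genome maintenance genes, Lig3, Brip1 and the phosphatase gene Ppm1d among them, had no call between the old groups, with a median log2 fold change of 0.06. Their values ranged from -0.03 to 0.80 (Rad51c, adjusted p = 0.382, edgeR). With age 1 rose (Brip1) and 1 fell (Lig3). Rad51c was called in old KO against young WT (log2 fold change 1.02, adjusted p = 0.0461, edgeR). That call was lost in 11 of 15 fits that left out 1 library. The 5 mitochondrial proteins had no genotype call, and Cox11 alone passed with age. Akap1, which anchors protein kinase A at the outer mitochondrial membrane, had 136 ± 7.64, 162 ± 16.4 and 151 ± 21.8 CPM, with a log2 fold change of -0.10 for genotype (adjusted p = 0.772, edgeR) and 0.24 for age (adjusted p = 0.0975, edgeR).

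None of the 8 genes of transcription machinery and co-regulators, and none of the 5 tested of 8 transcription factors, passed for genotype or age. The 8 co-regulators had log2 fold changes between -0.07 and 0.10 in old KO against old WT. Hlf, a circadian PAR bZIP factor, rose in old KO against young WT (log2 fold change 0.37, adjusted p = 0.043, edgeR), but the call remained in 4 of 15 fits that left out 1 library, those without young WT 6, old WT 7, old WT 10 or old KO 1. In the other 11 the adjusted p was 0.0525 to 0.12 (edgeR).

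The 10 genes of vesicle traffic, autophagy and cytoskeleton had no call between the old groups and a range from -1.10 (Unc45b) to 0.53 (Stxbp4), and Cltc fell with age. Dynll2, a dynein light chain, had 115 ± 11.3, 125 ± 3.36 and 132 ± 8.36 CPM in young WT, old WT and old KO (log2 fold change 0.08 for genotype, adjusted p = 0.751, edgeR). The 7 genes of the list of ubiquitin ligases and related proteins had log2 fold changes from -0.23 to 0.27, with no call for genotype or age. In old KO against young WT, 2 of them fell, among them Trim25, a ubiquitin ligase of the antiviral RIG-I pathway, by 0.35 on the log2 scale (adjusted p = 0.0288, edgeR). The Trim25 call was lost when any 1 of young WT 1, 2 or 4 or old KO 1, 2 or 5 was left out (adjusted p from 0.0572 to 0.0664, edgeR).

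In lipid and small-molecule metabolism, 5 of 6 genes were tested and none passed for genotype or age. Pctp, the phosphatidylcholine transfer protein, had 357, 306, 221, 255 and 303 CPM in young WT, 206, 182, 239, 116 and 311 CPM in old WT, and 112, 171, 192, 101 and 153 CPM in old KO. The old groups overlapped, and the spread within old WT was large. The log2 fold change was -0.53 ± 0.226 for genotype (SE, adjusted p = 0.366, edgeR) and -0.99 in old KO against young WT (adjusted p = 0.00619, edgeR). Of 4 tested phosphatases and signalling kinases none passed for genotype or age, and of 5 secreted and extracellular proteins 2 were tested, of which Gm11428 rose with age. The 3 granule peroxidases Mpo, Epx and Lpo had too few counts to be tested.

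Per kilobase of exon, the highest levels among the neighbours were those of 1100001G20Rik (Wfdc21 in RefSeq), a WAP-domain gene, at 598 CPM per kb, followed by Pctp at 79.0, Mmd at 55.6, Dynll2 at 45.4 and Akap1 at 34.1 CPM per kb. Wfdc21 had 177, 223, 244, 178 and 367 CPM in old WT and 257, 307, 303, 341 and 341 CPM in old KO, which overlapped (log2 fold change 0.38 ± 0.172, adjusted p = 0.401, edgeR). Mmd, a PAQR family membrane protein, had 342 ± 100.2 and 261 ± 62.7 CPM (log2 fold change -0.39, adjusted p = 0.527, edgeR). Dhx40 and Rnft1 were close to each other on this scale, at 10.2 and 10.5 CPM per kb, and Rps6kb1 had 3.60 CPM per kb.

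Tested neighbours had mean levels from 0.361 to 299 CPM with a median of 15.7, against 11.9 over all tested genes, and 65 of the 73 had at least 1 CPM. Their spread within groups, as the SD of log2 CPM, had a median of 0.2, against 0.227. The other 33 neighbours were too low to test: 13 were at 0 in all 15 libraries, 8 had 1 to 10 counts in all and 12 had more, with no more than 17 counts in any library. The 250 bases before the tested neighbours had a median GC content of 60.8% and 18 CpG dinucleotides, and those before the untested ones 49.6% and 4. Over all protein-coding genes the medians were 54% and 8. A GC box was found before 54.8% of tested and 18.2% of untested neighbours, and the TATAAA motif before 5.48% and 24.2%, against 12.3% of all protein-coding genes. CCAAT was before 41.1% and 33.3%, against 35% of all.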

How the data were processed

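Liver RNA was sequenced by the authors as stranded mRNA libraries (single-end 50-base reads). Per the labels and the study's methods, reads were processed with CASAVA, aligned to mm9 with TopHat2 2.0.11 and counted per gene with HTSeq, and the deposited values are raw counts per gene with no normalization. The submitters' processing notes also name DESeq2 1.18.1. Whether the counting used strand, and its annotation release, were not given in the sources used here.

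Gene positions came from GENCODE M1 on NCBIM37 (mm9), which placed 37205 of 37991 genes; 786 identifiers had no symbol. The members, role lists and marker lists were chosen with earlier results of these data known. Counts were fitted with edgeR 4.0.16 (R 4.3.3) over all 15 libraries, with TMM scaling, filterByExpr, a quasi-likelihood test and Benjamini-Hochberg adjustment over 14258 genes at 0.05. CPM used the TMM-scaled library size, and levels per kb used the union of exons. Intervals are 95% from the fit. Total counts ranged from 21801754 to 38065359, and the common biological coefficient of variation was 0.189. No 2 libraries of a group agreed within sampling noise (chi-square per degree of freedom 18.2 to 118 over 30 pairs). P-values weigh differences between groups against the spread between libraries. The fit was tested on simulated data.

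Named genes were the neighbours called for genotype, the 5 nearest on each side and Dhx40, the 5 largest rises and falls with age (adjusted p under 0.05, at least 1 CPM, no overlap), the 5 highest per kb, and up to 4 examples of a role list by mean CPM. Others were chosen after their values were seen. Alternatives were DESeq2 1.42.0, median-of-ratios and upper quartile scaling, no filter, a mean of at least 1 CPM, the 10 libraries of a contrast, a replicate block, genes whole in the window, and leaving out each library. Sequences were read from NCBIM37. The values of some neighbours are not reported here.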

Additional observations from a re-analysis of the deposited data

Results flagged for a closer look

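In young WT, 1 library had a Ptrh2 level of 18.8 CPM (replicate 6), while the other 4 had 13.9 to 15.3 CPM. Its gap to the next library was 0.715 of the range of the group, just over the limit of 0.71 for 5 samples. It was 1 of 54 groups looked at, and chance gives about 1 such value in 20 groups.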

How the results depend on the processing

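Dhx40 was lower in old KO than in old WT in all 23 fits. Neighbours called between these groups numbered 6 with DESeq2 (Dgke, Dhx40, Unc45b, Gdpd1, Msi2 and Gm11428, all lower), 2 with no filter, 2 with a mean of at least 1 CPM and 2 with the 10 libraries of the contrast, and 1 to 2 when 1 library was left out, where without young WT replicate 2 or old WT replicate 5 Gm11428 was added, and without young WT replicate 6 Unc45b. Over all genes this comparison gave 76 calls, 309 with DESeq2, and 9 to 108 without 1 library: 41, 10, 9, 37, 42, 13, 14, 17 and 13 without young WT 4, old WT 1, 4, 7 and 10, and old KO 2, 4, 5 and 6; the cause was not tested. Age calls ranged from 1748 (without young WT 1) to 3284 over all genes and from 4 to 9 among neighbours, where the call of Cox11 was lost in 6 of 15 leave-outs and with no filter, and that of Nle1 in 4 of 15. In old KO against young WT, 12 to 20 neighbours were called without 1 library; Hlf was lost in 11 of 15, with no filter and with the replicate block, and Trim25 in 6 of 15, with the 10 libraries of the contrast and with the replicate block. Same-numbered libraries of different groups did not deviate together (9 pairs, correlation -0.16 to 0.10). What the numbers stand for is not given in the labels, and so few pairs cannot exclude a pairing by number. With a replicate block 6 genes were called for genotype, 899 for age and 1 neighbour (Ypel2) for age. Cox11 and Nle1 were thus lost too, and Brip1, Cltc, Lig3 and Gm11428 had adjusted p of 0.0781, 0.128, 0.128 and 0.0597 (edgeR). Of 1122 refits of 51 fold changes of 17 named genes, 1089 kept their side of the threshold, 15 lost it, 18 gained it and 0 reversed a call. A fold change that was not called in the main fit and stayed uncalled counts as kept. The 17 genes do not include Nle1, Hlf, Rad51c and Trim25, whose lost calls are given separately. Of the neighbours, 33 neighbours were too low to test.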
